A study of Saccharomyces cerevisiae with 6 samples.

Results

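The genes described here are 10 members of the phosphate (PHO) system of budding yeast, out of 5656 yeast genes with a probe set of their own on the array. They were chosen by name and role, with earlier results of these data known. The phosphate transporters are PHO84 and PHO89 of high affinity and PHO87, PHO90 and PHO91 of low affinity. The others are the phosphatases PHO3, PHO5 and PHO8 and the regulators PHO4 and PHO81. Each had 1 probe set, 0 of the 10 carried a name that marks signal shared with other sequences, and 10 of 10 passed the filter on dim genes, so the count of tested members is the full count. The expression of these genes was measured in 3 arrays of a mutant strain in which residues 3 to 32 of histone H2B are altered, and in 3 arrays of a wild-type strain. Such a label usually means that the stretch, part of the amino-terminal tail of H2B, was deleted. Both strains were growing in mid-log phase in rich medium (YPD) when RNA was taken, and biotin-labelled cRNA made from it was hybridised to single-colour oligonucleotide arrays. The labels name neither the strain background nor the way the altered H2B gene is carried, and they do not say that replicates were separate cultures. The p-values thus reflect the spread of these 6 samples alone, and that spread may be technical.

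Yeast cells take up inorganic phosphate through transporters of high and low affinity and free it from organic esters with secreted and vacuolar phosphatases. When phosphate is plentiful, as in rich medium, the cyclin and kinase pair Pho80-Pho85 phosphorylates the transcription factor Pho4 and keeps it out of the nucleus. When phosphate runs short, the inhibitor Pho81 blocks that kinase, and Pho4 with its partner Pho2 turns on PHO5, PHO84 and other target genes. The PHO5 promoter is a textbook case of gene control by nucleosomes, which cover it in the repressed state and are removed on activation. The question of the comparison is which genes depend on this stretch of the H2B tail in growing cells.

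The signals given below are MAS5 values per probe set on a linear scale in arbitrary units, as the authors deposited them. They can be compared between arrays for 1 gene but not between genes, since probe sets differ in brightness. HTB1, a gene of H2B itself, read 16.1, 19.4 and 15.2 on mutant arrays 1, 2 and 3, against 1371.8, 1138.4 and 1191 on wild-type arrays 1, 2 and 3, so this gene split the arrays the way their labels do. Where its probe set lies relative to the altered stretch is not known from the sources used here. The arrays of replicate 3 stood apart in both strains. The median signal was 40.5 and 40 on mutant and wild-type array 3, against 28.7 to 31 on the other 4 arrays, and spiked hybridisation controls averaged 98.8 and 102 on the arrays 3 against 345 to 455 on the others. Same-numbered arrays of the strains deviated together from their group means, with correlations across genes of 0.52, 0.59 and 0.86 for replicates 1, 2 and 3. Mutant array 1 correlated more with wild-type array 2 (0.65) than with wild-type array 1, so the data tie together the arrays of replicate 3 and leave the pairing of replicates 1 and 2 to the labels. Each change is therefore given within same-numbered pairs as well as over the groups.

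With the strain as the only term, 0 of the 10 phosphate genes passed limma in either direction at an adjusted p of 0.05, and 1 of 10, PHO87, had an unadjusted p under 0.05. In that fit 0.0221% of all 4525 tested genes were called, which is HTB1 alone, and the adjusted p was 0.9998 for each of the 10. With the replicate number as a block, PHO87 fell and the other 9 did not pass, while 2.28% of all tested genes were called, 0.884% higher and 1.39% lower. At an unadjusted p under 0.05 this blocked fit held 2 higher members (PHO89 and PHO5) and 2 lower ones (PHO87 and PHO81). Over all 4525 tested genes the same fit held 234 higher and 547 lower, 17.3% in either direction. Throughout, "fell" refers to the blocked fit, whose estimate of spread leans on a prior shared between genes (2 residual degrees of freedom against 12.52 for the prior). The 10 changes had a median of 0.03 on the log2 scale, beside -0.06 for all tested genes. The median of all tested genes depended on the scaling. It was -0.02 after scaling to a common median and -0.03 after quantile normalization. Changes above 0 were found for 2035 and 1947 genes in these settings, against 1672 as deposited.

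**Figure D1:**
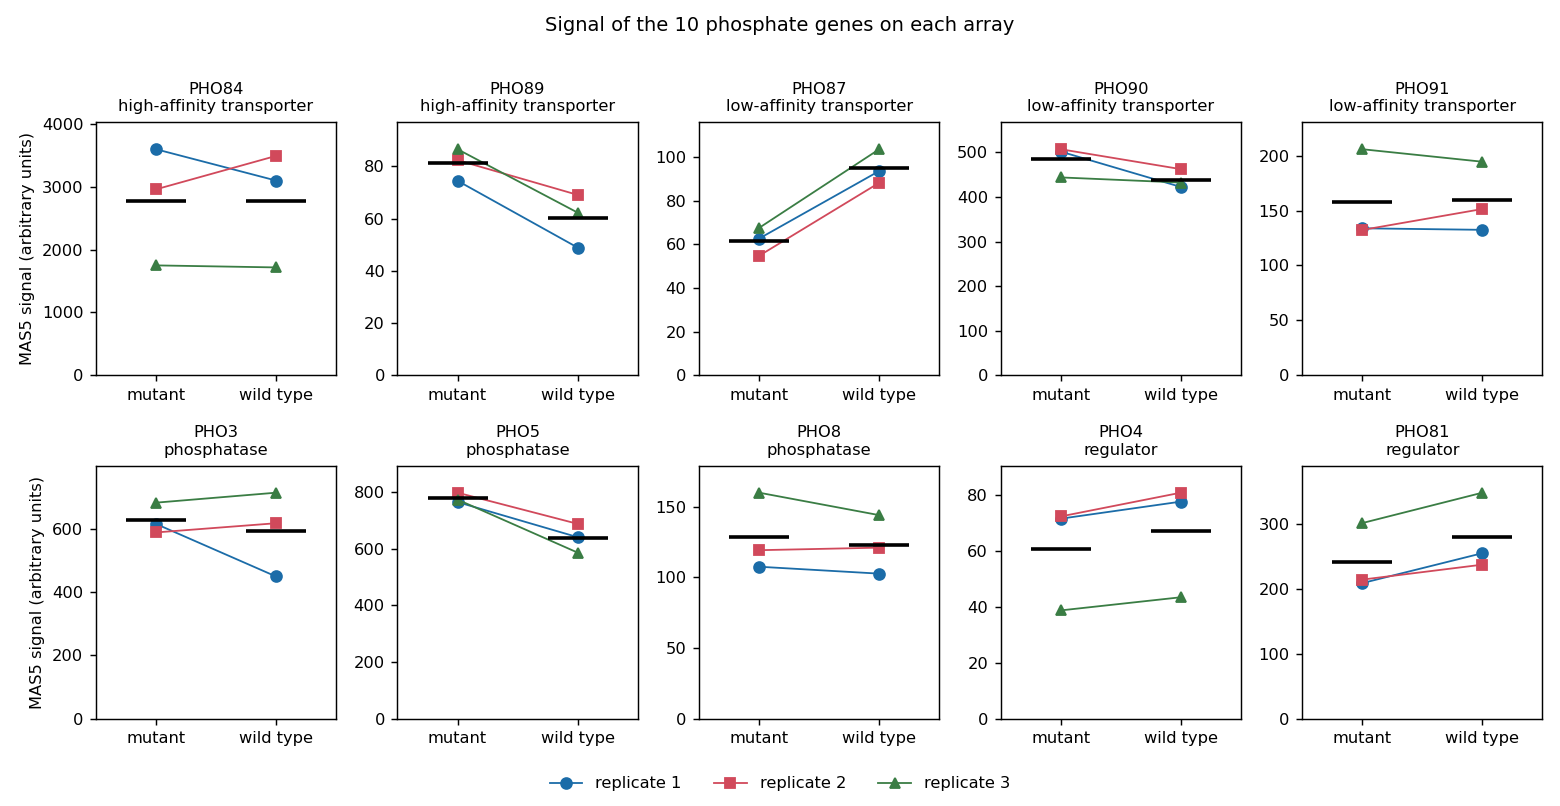
MAS5 signal (arbitrary units, linear axis from 0, a scale of its own for each gene) of the 10 phosphate genes on mutant and wild-type arrays. Points are arrays, lines join same-numbered arrays and black bars are group means (n = 3). The groups separate for PHO89, PHO87 and PHO5, and PHO84 and PHO4 are lowest on the arrays of replicate 3 in both strains.

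The low-affinity transporter PHO87 (YCR037C), a plasma membrane protein, was the member with the largest change. Its signal was 62.7, 54.8 and 67.6 on mutant arrays 1, 2 and 3, against 93.7, 88.3 and 103.7 on wild-type arrays 1, 2 and 3. The groups did not overlap, and the highest mutant array lay well below the lowest wild-type array. The means were 61.7 ± 6.46 in the mutant and 95.2 ± 7.81 in wild type (SD, n = 3 each), a signal 35.2% lower in the mutant. The log2 change was -0.61, with pair values of -0.56, -0.66 and -0.60, so the pairs lay close together. PHO87 had a limma adjusted p of 0.0126 with the replicate block (95% interval -0.85 to -0.37) and 0.9998 with the strain only (unadjusted p = 0.00692, interval -0.99 to -0.22). Of all 4525 tested genes 22 had a lower log2 change, and 1.08% had a larger one in either direction. With the blocked fit on 2 pairs the adjusted p was 0.00162 without replicate 1, 0.121 without replicate 2 and 0.171 without replicate 3, at log2 changes of -0.63, -0.58 and -0.61. When replicate 3 entered as a batch in place of the pairs, a setting chosen after the data were seen, the adjusted p was 0.0097.

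PHO90 (YJL198W) encodes the other low-affinity transporter of the plasma membrane, a close relative of Pho87. Its signal was 501.9, 507.2 and 443.9 on mutant arrays 1, 2 and 3, against 422.5, 462.5 and 432.4 on wild-type arrays 1, 2 and 3. The groups overlapped, because mutant array 3 lay below wild-type array 2, while each mutant array lay above the wild-type array of its number. PHO90 averaged 484 ± 35.1 in the mutant and 439 ± 20.8 in wild type (SD, n = 3 each), a log2 change of 0.14 with an adjusted p of 0.478 in the blocked limma fit (interval -0.06 to 0.34). The change of PHO90 exceeded that of PHO87 by 0.81, 0.79 and 0.64 in pairs 1, 2 and 3, a difference between related genes that is given as a description only.

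PHO91 (YNR013C) encodes a transporter of the same family that sits in the vacuolar membrane and releases phosphate to the cytosol. It read 133.9, 132.4 and 206 on mutant arrays 1, 2 and 3, against 132.5, 151.5 and 194.6 on wild-type arrays 1, 2 and 3. The arrays of replicate 3 were highest in both strains, and the strains overlapped. Its log2 change of -0.03 (blocked interval -0.25 to 0.19, adjusted p = 0.908 by limma) turned to 0.005 when the arrays were scaled to a common median.

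PHO89 (YBR296C) encodes a high-affinity transporter that carries phosphate together with sodium and serves cells at alkaline pH. Its signal was 74.5, 82.4 and 86.6 on mutant arrays 1, 2 and 3, against 48.9, 69.1 and 62.3 on wild-type arrays 1, 2 and 3. The groups did not overlap, although mutant array 1 and wild-type array 2 lay close together. The means were 81.2 ± 6.14 in the mutant and 60.1 ± 10.3 in wild type (SD, n = 3 each), 35.1% more signal in the mutant, and the log2 change of 0.43 was made up of 0.58, 0.25 and 0.46 in pairs 1, 2 and 3. Its adjusted p was 0.0818 in the blocked limma fit (interval 0.17 to 0.69), short of the threshold. It passed that fit after quantile normalization (adjusted p = 0.0189) and after scaling to a common median (adjusted p = 0.0124), at log2 changes of 0.48 and 0.46, both combinations chosen after the data were seen. Of all tested genes 69 had a higher log2 change than PHO89.

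PHO84 (YML123C) encodes the main high-affinity transporter, which moves phosphate with protons and is a strong target of Pho4. Its signal was 3597.4, 2958.6 and 1747.7 on mutant arrays 1, 2 and 3, against 3098.5, 3491.1 and 1715.4 on wild-type arrays 1, 2 and 3. The spread lay between replicates and not between strains, since both arrays of replicate 3 read far below the other 4. PHO84 averaged 2768 in each strain (SD 939 in the mutant and 933 in wild type, n = 3 each). Its pair values of 0.22, -0.24 and 0.03 on the log2 scale had no common sign, and their mean was 0.00 with a blocked 95% interval of -0.26 to 0.26 (adjusted p = 0.998 by limma). The interval of the fit with the strain only was wider, -0.87 to 0.87.

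**Figure D2:**
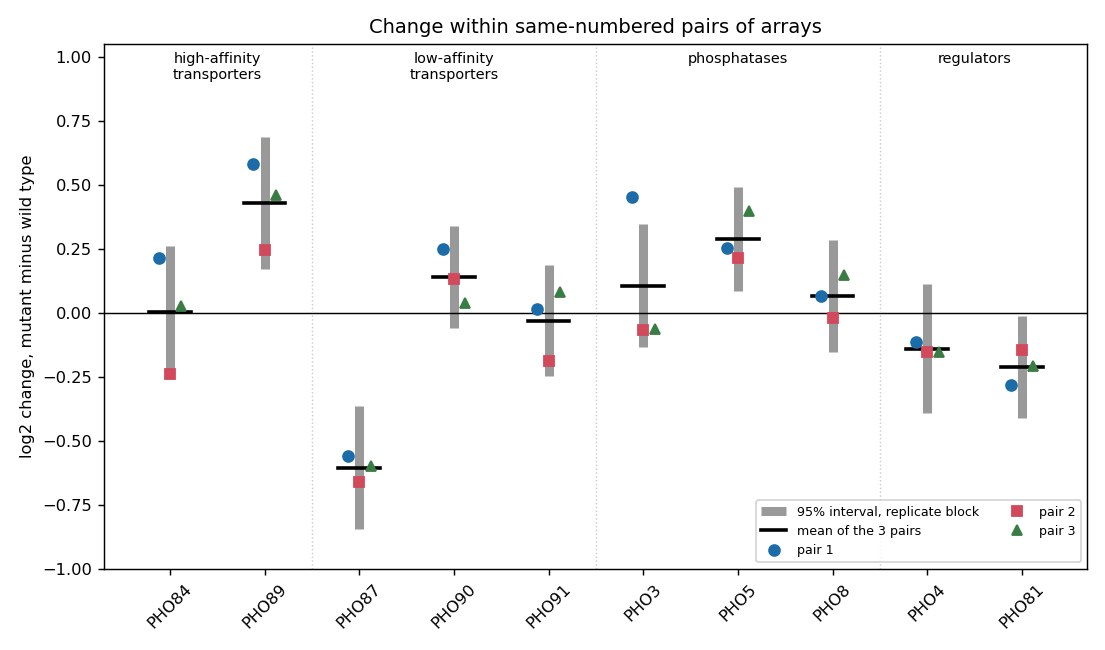
Log2 change (mutant minus wild type) of the 10 phosphate genes in each same-numbered pair of arrays, with the mean of the 3 pairs and the 95% interval of the fit with the replicate block. The pairs of PHO87 lie at -0.56 to -0.66, those of PHO89 and PHO5 are above 0, and those of PHO84 lie on both sides of 0.

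Set against each other, the high-affinity transporters had the higher mean log2 change in 3 of 3 pairs. The mean over PHO84 and PHO89 was 0.40, 0.00 and 0.24 in pairs 1, 2 and 3, against -0.10, -0.24 and -0.16 for the mean over PHO87, PHO90 and PHO91. The difference, high-affinity less low-affinity, averaged 0.38 ± 0.13 (SD over 3 pairs) and is a description with no test. It rested on PHO89 and PHO87, whose changes differed by 1.03 ± 0.12 (SD over 3 pairs). Without these genes, the change of PHO84 less the mean of PHO90 and PHO91 was 0.08, -0.21 and -0.03 in pairs 1, 2 and 3. These genes were set aside as the highest and lowest of the 5, and differences within an affinity class were not tested.

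Among the phosphatases, PHO5 (YBR093C) encodes the main secreted acid phosphatase, made when phosphate is scarce. Its signal was 764.1, 797.3 and 772.9 on mutant arrays 1, 2 and 3, against 640.3, 687.3 and 585.8 on wild-type arrays 1, 2 and 3. The groups did not overlap, and the mutant arrays lay within a narrow range. The means were 778 ± 17.2 in the mutant and 638 ± 50.8 in wild type (SD, n = 3 each), 22% more signal in the mutant. The log2 change of 0.29 (pair values 0.25, 0.21 and 0.40) had an adjusted p of 0.133 with the block and 0.9998 without it by limma, and its blocked interval was 0.08 to 0.49. Among the alternatives run, PHO5 passed only the blocked fit without replicate 1 (adjusted p = 0.0336, log2 change 0.31).

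PHO3 (YBR092C) encodes a related acid phosphatase that is made without phosphate starvation and acts on thiamine phosphates, and it neighbours PHO5 on the chromosome with 0 genes between them. It read 614.5, 587.6 and 681.6 on mutant arrays 1, 2 and 3, against 448.6, 616.7 and 713.1 on wild-type arrays 1, 2 and 3. Wild-type array 1 was the low point, and the groups overlapped. The log2 change was 0.45 in pair 1 but -0.07 and -0.06 in pairs 2 and 3, and its mean of 0.11 had a blocked interval of -0.13 to 0.35 (adjusted p = 0.673 by limma). The sequences of PHO3 and PHO5 are alike, and signal that crosses between their probe sets was not tested. The change of PHO5 less that of PHO3 was -0.20, 0.28 and 0.46 in pairs 1, 2 and 3, so the order of the neighbours turned between pairs.

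PHO8 (YDR481C) encodes the alkaline phosphatase of the vacuole. It read 107.5, 119.2 and 159.9 on mutant arrays 1, 2 and 3, against 102.6, 121 and 144 on wild-type arrays 1, 2 and 3. The strains overlapped, with replicate 3 highest in both. The log2 change was 0.06 (blocked interval -0.15 to 0.28, adjusted p = 0.787 by limma). The shared probe set of the secreted acid phosphatase genes PHO11 and PHO12, which is assigned to both and was left out of the tests, averaged 1106 ± 205 in the mutant and 1155 ± 257 in wild type (SD, n = 3 each), with 1 of 3 pairs higher in the mutant.

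The regulator genes had lower values in 3 of 3 pairs, as did 27.4% of all tested genes, and neither regulator gene passed the test. PHO4 (YFR034C) encodes the transcription factor that activates the phosphate genes. Its signal was 71.5, 72.3 and 38.7 on mutant arrays 1, 2 and 3, against 77.6, 80.8 and 43.4 on wild-type arrays 1, 2 and 3. The strains overlapped because the arrays of replicate 3 were low in both, while the pair values of -0.11, -0.15 and -0.15 lay close together. The mean log2 change was -0.14, with an adjusted p of 0.584 in the blocked limma fit (interval -0.39 to 0.11).

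PHO81 (YGR233C) encodes the inhibitor of the Pho80-Pho85 kinase. It read 209.2, 214.6 and 301.9 on mutant arrays 1, 2 and 3, against 255.4, 237.7 and 348.8 on wild-type arrays 1, 2 and 3. Each mutant array was below the wild-type array of its number, and the strains overlapped through replicate 3, which was high in both. The means were 242 ± 52 in the mutant and 281 ± 59.7 in wild type (SD, n = 3 each). The log2 change of -0.21 (pair values -0.28, -0.15 and -0.21) had a blocked interval of -0.41 to -0.01 and an adjusted p of 0.258 by limma. With the strain only, it was -0.047 without wild-type array 3 and -0.38 without mutant array 3.

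By count, 3 of the 10 genes (PHO89, PHO90 and PHO5) were higher in the mutant in 3 of 3 pairs, against 11.5% of all tested genes, and 3 (PHO87, PHO4 and PHO81) were lower in 3 of 3 pairs, against 27.4%. The groups did not overlap for 3 of the 10, PHO89 and PHO5 with the mutant higher and PHO87 with the mutant lower. Among all tested genes this held for 7.65%, of which 2.65% with the mutant higher and 4.99% with the mutant lower. The members were chosen with earlier results known, so these counts are a description with no test.

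**Figure D3:**
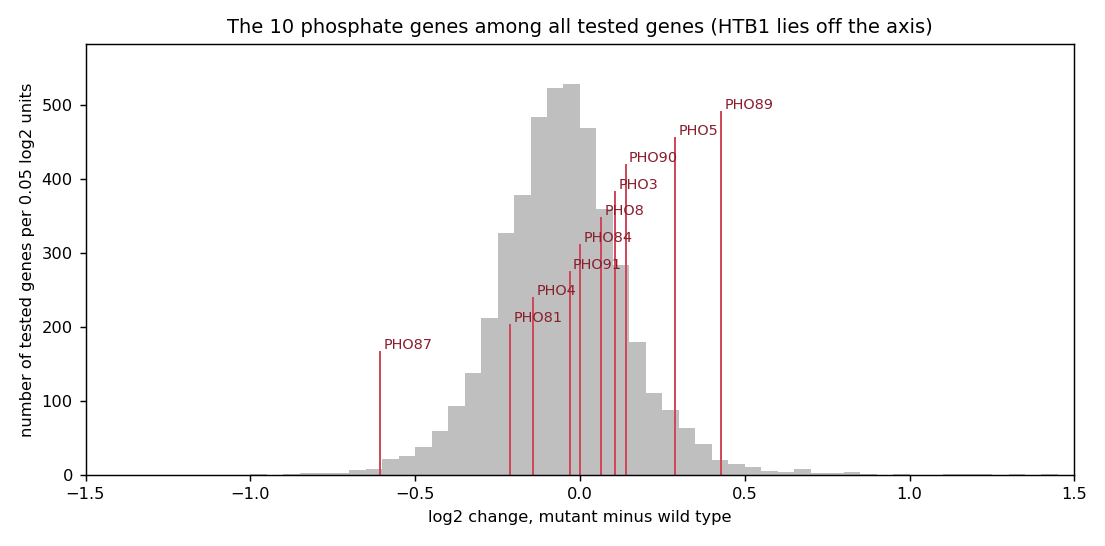
Number of tested genes per 0.05 log2 units of change (mutant minus wild type, mean of 3 pairs), with the 10 phosphate genes as vertical lines whose height carries no value. PHO87 at -0.61 and PHO89 at 0.43 lie in the flanks of the distribution, and the other members lie between -0.21 and 0.29.

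For 7 of the 10 genes the arrays of replicate 3 differed from the other arrays of their own strain by more than the strains differed, in both strains for 6 of them and in the mutant alone for PHO90. PHO84 was lower on array 3 than on the mean of arrays 1 and 2 by a log2 difference of -0.90 in the mutant and -0.94 in wild type. PHO4 was lower on array 3 too, by -0.85 in the mutant and -0.83 in wild type. PHO91 (0.62 in the mutant and 0.45 in wild type), PHO81 (0.51 and 0.50) and PHO8 (0.49 and 0.36) were higher on array 3. PHO87 and PHO89 moved little, by 0.20 and 0.14 in the mutant and by 0.18 and 0.09 in wild type, and PHO5 by -0.01 in the mutant and -0.18 in wild type. Over the 10 genes the median absolute difference of array 3 was 0.34 in the mutant and 0.40 in wild type, beside 0.14 for the change between strains. Over all tested genes these values were 0.42, 0.37 and 0.12. The part of the replicate 3 arrays in these results was not tested beyond the fits that carry the replicate or the batch as a term.

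**Figure D4:**
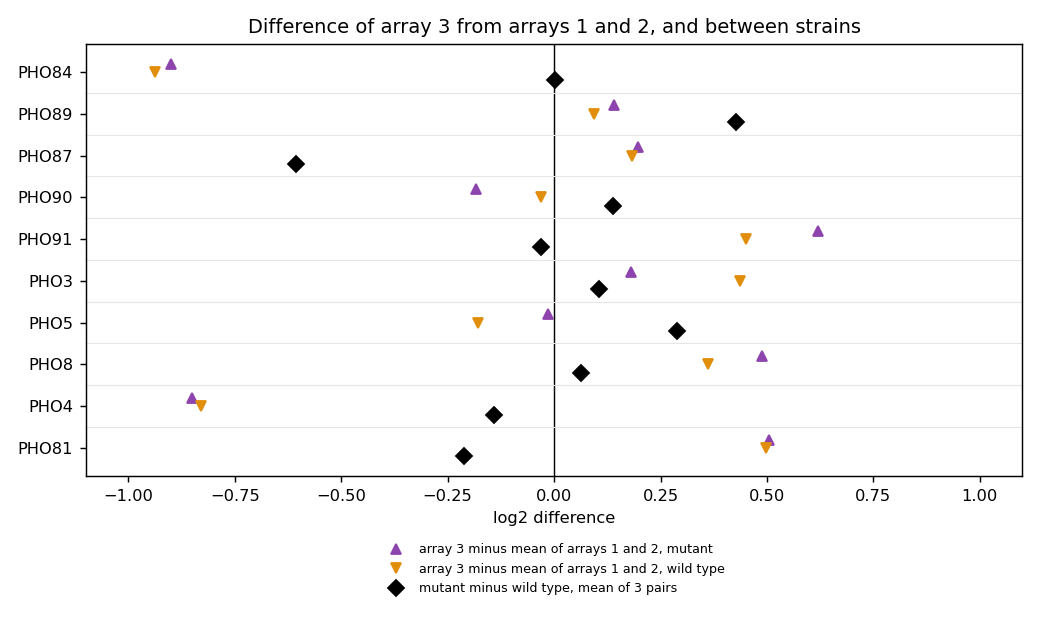
Log2 difference of array 3 from the mean of arrays 1 and 2 in the mutant and in wild type, and log2 change between strains (mutant minus wild type, mean of 3 pairs), for the 10 phosphate genes. The difference of array 3 runs from -0.94 for PHO84 in wild type to 0.62 for PHO91 in the mutant, and only PHO89, PHO87 and PHO5 have a change between strains beyond the difference of array 3 in both strains.

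Other genes of phosphate metabolism were listed by role: 34 genes, of which 32 had a probe set of their own and 28 were tested. Of the 28, 0 passed by limma in either direction, with the strain only or with the replicate block. At an unadjusted p under 0.05 there were 0 with the strain only, and 3 higher and 6 lower with the block. At that unadjusted p the blocked fit held 234 higher and 547 lower genes of all 4525 tested, 17.3% in either direction. The log2 changes of the 28 were above 0 in 13 and below 0 in 15. Their median was -0.01, beside -0.06 for all tested genes. The dim genes left out were DIA3, PHM7, PHO2 and PHO92.

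The highest values were those of SPL2, PHM8 and VTC3. SPL2, which encodes a negative regulator of low-affinity phosphate uptake that acts on Pho87 protein, read 200.4, 164.1 and 148.5 on mutant arrays 1, 2 and 3, against 127, 148 and 131.2 on wild-type arrays 1, 2 and 3. The groups were separated by a narrow margin, and pair 1 had the largest difference. Its log2 change was 0.32 (blocked adjusted p = 0.162 by limma), and it passed the blocked fit after scaling to a common median (0.36, adjusted p = 0.0364) but not after quantile normalization. Both combinations were chosen after the data were seen, and with the median scaling 101 genes of all tested were called higher and 115 lower, against 40 and 63 in the blocked fit on the values as deposited. PHM8, a phosphatase gene induced on phosphate starvation, had a log2 change of 0.26 (adjusted p = 0.21), and VTC3 of the vacuolar polyphosphate synthase complex one of 0.22 (adjusted p = 0.253), both in the blocked limma fit. Of the 5 tested starvation genes 3 had values above 0 (median 0.10), and of the 5 polyphosphate synthesis genes 4 did (median 0.09). The share over all tested genes was 37%. VTC5 counts as above 0 on the brightest of its 4 probe sets (0.07, with 1 of 3 pairs higher). Its other sets were dim (strain means of 4.77 to 14.8) and gave -0.21, -0.43 and -0.22.

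The lowest values were those of PHO80, CBF1 and VIP1. PHO80, the cyclin gene of the Pho80-Pho85 kinase, had a log2 change of -0.38 (blocked adjusted p = 0.276 by limma), with -0.97 in pair 1 and -0.02 and -0.15 in pairs 2 and 3. Pair 1 thus carried most of that mean. CBF1, whose product binds the same core DNA motif as Pho4, had a log2 change of -0.31 (adjusted p = 0.242). VIP1, an inositol pyrophosphate kinase gene, had one of -0.31 (adjusted p = 0.157) on the brightest of its 6 probe sets. Of the other 5 VIP1 probe sets, which gave -0.11 to 0.56, 4 carry a mark of shared sequence in their names. The fifth was dim (9.7 in the mutant and 8.17 in wild type), so they are no like-for-like check. A marked set of similar brightness (113.7 in the mutant and 98.2 in wild type) gave 0.20. The value of -0.31 thus rests on 1 probe set. Of the 4 tested regulator genes outside the 10 members 3 had values below 0 (median -0.23), as did 3 of the 4 inositol pyrophosphate enzyme genes (median -0.21). Of all tested genes 63% had values below 0, so the counts for regulator and inositol pyrophosphate enzyme genes lie near the background.

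**Figure D5:**
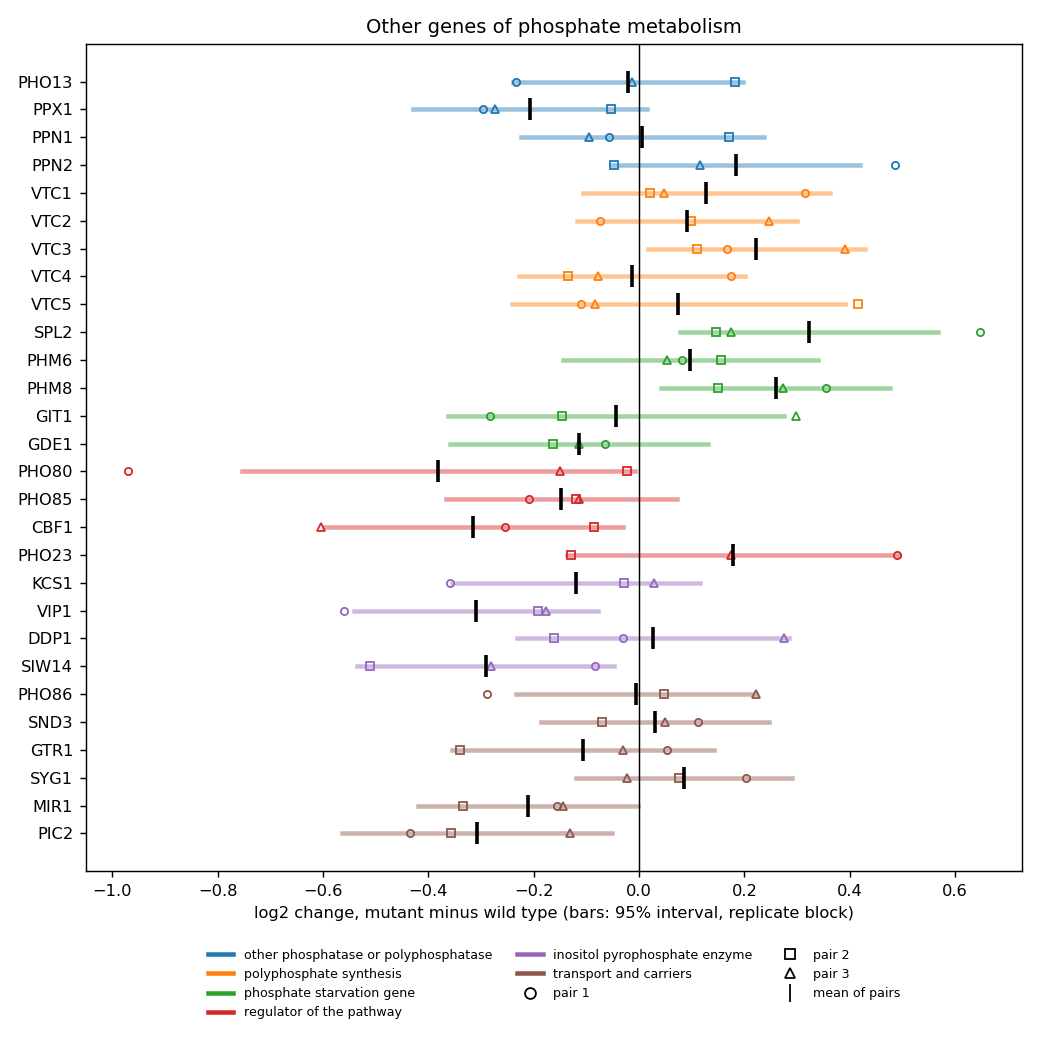
Log2 change (mutant minus wild type) of the 28 other tested phosphate genes by role, with the 3 pairs of arrays, their mean and the 95% interval of the fit with the replicate block. The means run from -0.38 for PHO80 to 0.32 for SPL2, and 0 of the 28 genes passed the adjusted test.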

How the data were processed

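Per the submitters' processing notes, the authors used MAS5 to turn the scans into 1 intensity value per probe set. The notes and labels used here name no version, settings or detection calls. The 6 deposited columns shared a 2% trimmed mean (125.1 to 125.2) and were used as deposited. Of 9335 probe sets, 60 controls were left out, and 6504 were assigned to 1 gene, 328 to several and 2443 to none by the platform's gene table. Symbols were updated through the R64 RefSeq table by gene identifier (5656 genes matched). The listed name PHO88 is SND3 there. The brightest probe set stood for a gene. An offset of 2.7 (10th percentile) was added before log2, so changes of dim genes are understated, and genes below the 20th percentile of mean log2 level were left out (1131), leaving 4525.

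The test was limma (version 3.58.1, R 4.3.3; lmFit, then eBayes with a trend), two-sided, with Benjamini-Hochberg adjustment over 4525 genes and a threshold of 0.05. The main fit held the strain only, and the replicate number as a block entered a second fit. Same-numbered arrays correlated above 0.1 in each pair (0.52 to 0.86), so the blocked values are printed too. Mutant array 1 with wild-type array 2 (0.65) and mutant array 2 with wild-type array 1 (0.51) correlated about as much. The correlations thus cannot decide the pairing of replicates 1 and 2. The pairing comes from the labels' replicate numbers. The wild-type array 3 is labelled as the wild type of other H2B mutants too.

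The named genes were the 10 members, HTB1, each other listed phosphate gene that passed either fit, and the 3 highest and 3 lowest changes among those tested. Members and lists were chosen with earlier results of these data known. The steps were tested on simulated data in which same-numbered arrays of the strains shared a replicate shift. Such data cannot decide how the real arrays pair. The number of arrays limits the precision.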

Additional observations from a re-analysis of the deposited data

How the results depend on the processing

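Each of the 10 members was refitted under 28 alternatives, and 249 of 280 values kept their direction and their side of the threshold. PHO87 passed in 10 alternatives, all with the replicate block or the replicate 3 batch: log2 -0.61 with the replicate block (also with no filter, the 40th percentile filter, no trend, or the replicate 3 batch), -0.56 with the block and quantile normalization, -0.57 with the block and median scaling, -0.62 and -0.52 with the block and offsets of 0.5 and 16. It kept its sign when an array or pair was left out (-0.67 to -0.53). The block changed no other member's call. Combined with quantile normalization or median scaling, fits added after the data were seen, it passed PHO89 (0.48 and 0.46). PHO91 turned to 0.005 with median scaling, with and without the block, and PHO84 to -0.012 in replicates 1 and 2 alone. Leaving out 1 array or pair gave ranges of -0.31 to 0.30 for PHO84, -0.24 to 0.12 for PHO91, -0.081 to 0.25 for PHO3, -0.10 to 0.18 for PHO8, -0.42 to 0.14 for PHO4, 0.23 to 0.34 for PHO5, 0.29 to 0.53 for PHO89, -0.38 to -0.047 for PHO81 and 0.085 to 0.20 for PHO90. With the block and without replicate 1, PHO84 was at -0.11, PHO3 at -0.067, PHO87 at -0.63 and PHO5 at 0.31, the last 2 past the threshold. With the block, PHO84 was at -0.012 without replicate 3 and PHO91 at 0.048 without replicate 2. The difference of high-affinity less low-affinity transporters stayed between 0.32 and 0.45. The cause of these moves was not tested.

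The count of members called was 0 with the strain only, and with the block 1 lower and 0 higher. It was 1 higher when the block was combined with quantile normalization, with median scaling or with leaving out replicate 1, and 0 higher under each of these without the block, with a range over left-out arrays or pairs of 0 to 1 in each direction. Of the other phosphate genes 1 was called higher with the block and median scaling (SPL2). Of all genes, with the block 40 were called higher and 63 lower, against 0 and 1 without it. The counts were 1 higher with quantile normalization alone, 45 and 74 with the replicate 3 batch, and 17 and 27 in replicates 1 and 2 alone. With the block they were 86 and 95 after quantile normalization, 101 and 115 after median scaling, 42 and 67 at offset 0.5, 40 and 63 at offset 16, 36 and 42 with no filter, 26 and 46 at the 40th percentile, and 27 and 29 with no trend. Leaving out an array or pair gave 0 to 79 higher and 1 to 153 lower. Of these, the blocked fits gave 79 higher and 153 lower when pair 1 was left out, 13 higher and 17 lower when pair 2 was, and 7 higher and 6 lower when pair 3 was. The signal over background of each probe set is unknown, since no detection calls were given.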
